A study of Mus musculus with 24 samples.

Results

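A set of 10 genes of arterial endothelium and of the elastic fibre were followed through the RNA-seq counts of mouse liver cells and livers. They are the connexins Gja1, Gja4 and Gja5, the elastic fibre genes Eln, Fbln2, Fbln5 and Ltbp4, and the artery-associated genes Bmx, Npr3 and Sncg, 10 of the 48574 gene symbols counted. They were taken by symbol from each of the 4 count tables, and every one was present in all of them. Gja5, Fbln5, Npr3 and Sncg are among the large-artery genes that the study displayed from these same EC libraries, so their direction here is not independent evidence.

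The study asked what becomes of liver cells when hepatic stellate cells (HSCs) cannot make the ligands GDF2 (BMP9) and BMP10. Gdf2/Bmp10 HSC-KO mice carry floxed Gdf2 and Bmp10 alleles and the Lrat-Cre driver, which is active in HSCs, and their controls lack this deletion. Hepatic ECs were sorted as CD45-CD31+ cells from mice aged 8 to 10 weeks, and whole livers were taken at 12 weeks, with 3 control and 3 HSC-KO libraries each. Liver macrophages, sorted as CD45+Ly6C-F4/80+CD64+ cells at 8 to 10 weeks, came from the same 2 genotypes and, in a separate experiment, from mice with floxed Smad4 alleles with or without Vav1-Cre, which is active in blood cells (3 libraries per group). The labels give the strain as C57BL/6 (the study's methods C57BL/6J), and a CD31 gate as stated does not separate sinusoidal from arterial, venous or lymphatic ECs. The columns of the EC count table are named LSEC (liver sinusoidal ECs), whereas the labels say ECs, so how far other ECs are included is uncertain.

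Connexins are the proteins of gap junctions, the channels through which neighbouring cells share ions and small molecules. Arterial endothelium is known for connexin 37 (Gja4), connexin 40 (Gja5) and connexin 43 (Gja1), whereas the sinusoidal endothelium that makes up most of the liver's vessels has no continuous basement membrane and little elastic matrix. Elastic fibres are built from tropoelastin (Eln) laid on microfibrils, a process in which fibulin-5 (Fbln5) and LTBP-4 (Ltbp4) take part and fibulin-2 (Fbln2) is a further component. Bmx is a Tec family kinase of arterial endothelium, Npr3 is the clearance receptor of natriuretic peptides, and Sncg encodes gamma-synuclein.

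The EC libraries held 66694659 to 87879751 counts, the liver libraries 73941995 to 104087482, and all 24 libraries 60911527 to 110879155. Values below are CPM, the count scaled to library size with TMM factors. The floor of detection was taken as 3 counts, which is 0.0318 to 0.0485 CPM in ECs. Gdf2 in livers was 9.38 to 22.5 CPM in controls and 2.12 to 3.84 CPM in HSC-KO mice, and Smad4 in its own experiment was 35.3 to 42.8 CPM in controls and 12.6 to 17.2 CPM after the deletion. One EC library, HSC-KO 1, stood apart from the other 2 of its group on the first principal component (37.3 against 64.3 and 66.1, with controls at -58.1 to -54.7). Liver HSC-KO 3 stood apart likewise (43.0 against 23.2 and 20.3 on the first component, 38.7 against -23.3 and -32.9 on the second). Xist was at 21.5 CPM or more in EC control 1, HSC-KO 1 and HSC-KO 3 and in every liver except HSC-KO 3 (0.167 CPM), and was at 0 counts in the other EC libraries. Sex was thus mixed within both EC groups, whereas all 3 control livers and 2 of 3 HSC-KO livers had Xist. A gene was called changed when edgeR's quasi-likelihood test gave a Benjamini-Hochberg adjusted p below 0.05 and the log2 fold change exceeded 1 in size.

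Promoter sequences are shown for the connexin that fell in ECs and for 2 of the genes that rose most. They are the bases before the RefSeq start in GRCm38.p6, given 5′ to 3′ on the strand of the gene, without annotated exons, and the Fbln5 promoter is the first of 2 in the table. Capitals mark matches, on either strand, to the motifs GGCGCC (BMP-SMAD), CAGACA (SMAD), ACAAT (SOX), CATTCC (TEAD) and GGAAG (ETS).
Gja4 (chr4:127314040-127314289, minus strand): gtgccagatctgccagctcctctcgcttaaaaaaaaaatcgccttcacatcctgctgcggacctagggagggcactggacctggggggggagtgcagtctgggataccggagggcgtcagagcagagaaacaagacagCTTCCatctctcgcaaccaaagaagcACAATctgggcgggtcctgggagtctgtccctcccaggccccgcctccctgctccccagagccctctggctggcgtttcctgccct
Fbln5 (chr12:101819120-101819369, minus strand): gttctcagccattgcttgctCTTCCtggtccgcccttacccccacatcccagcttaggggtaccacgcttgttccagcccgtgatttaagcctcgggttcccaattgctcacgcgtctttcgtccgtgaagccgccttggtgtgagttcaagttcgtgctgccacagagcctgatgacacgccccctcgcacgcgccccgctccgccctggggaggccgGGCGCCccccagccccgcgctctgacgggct
Sncg (chr14:34374790-34374919, minus strand): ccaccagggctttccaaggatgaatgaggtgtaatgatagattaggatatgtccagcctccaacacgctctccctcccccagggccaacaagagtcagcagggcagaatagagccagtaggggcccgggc

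Fbln5 holds a GGCGCC 31 bases before its start, a motif found in 9.59% of 32851 promoters in a window of 250 bases. Gja4 holds an ACAAT 86 bases before its start, found in 27.7% of the promoters, and both Gja4 and Fbln5 hold a GGAAG in the reverse orientation, found in 64.1%. In the 250 bases before the Sncg start none of the 5 motifs was found. CAGACA (17.1% of promoters) and CATTCC (12.6%) were in none of these 3 windows. The second Fbln5 promoter, not shown, holds a CAGACA 15 bases, a GGCGCC 238 bases and a GGAAG 242 bases before its start. These are matches of letters and were not tested for binding.

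In sorted ECs the 10 genes did not move as a block. Eln, Fbln5, Npr3 and Sncg rose in ECs of HSC-KO mice, Gja4 fell, and Gja1, Gja5, Fbln2, Ltbp4 and Bmx were not called by edgeR's quasi-likelihood test. The 4 rises and 1 fall out of 10 genes stand beside 7.68% of all 16053 genes tested that were called higher and 6.01% that were called lower. The groups did not overlap for 7 of the 10, beside 40.4% of all genes, and the median log2 fold change was 1.20, beside 0.00 over all genes. Without the library HSC-KO 1, 4 of the 10 were called, namely Gja4, Eln, Fbln5 and Sncg.

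**Figure D1:**
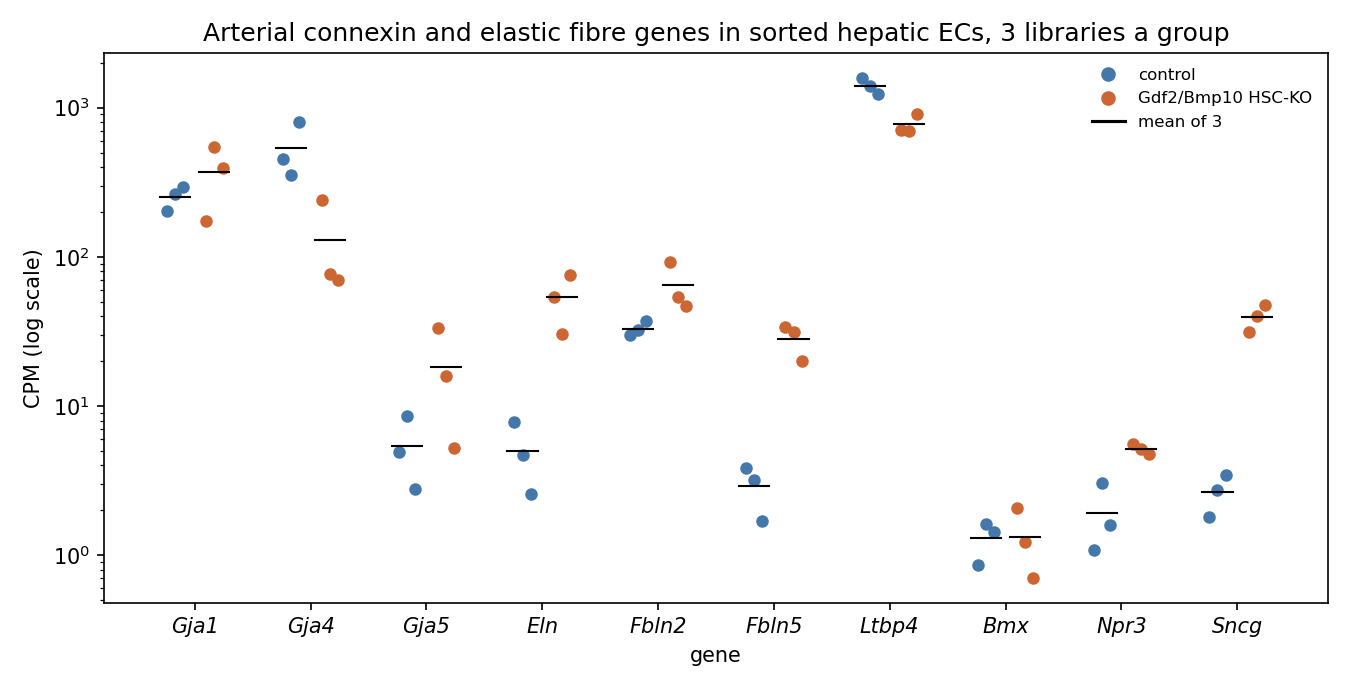
CPM (log scale) of the 10 genes in each of 3 control and 3 HSC-KO libraries of sorted hepatic ECs, with bars at the group means. The HSC-KO libraries of Eln, Fbln5, Npr3 and Sncg lie above every control, those of Gja4 and Ltbp4 lie below, and those of Gja1, Gja5 and Bmx overlap the controls.

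Among the connexins Gja1, Gja4 and Gja5, Gja4 was the most abundant by CPM in control ECs and the one that fell. Gja4 (chromosome 4, 127311421 to 127314039, GRCm38) was at 454, 355 and 801 CPM in control ECs 1 to 3 and at 239, 76.5 and 70.4 CPM in HSC-KO ECs 1 to 3. The groups did not overlap, and HSC-KO 1 was nearest to the controls. The fall was 4.17-fold (log2 fold change -2.06, SE 0.53, adjusted p = 0.032 by edgeR, 0.0020 to 0.11 over the alternatives). Its call was lost when control 1, control 3, HSC-KO 2 or HSC-KO 3 was left out (log2 fold change -2.16 to -1.65, adjusted p = 0.065 to 0.11 by edgeR), while the direction held in each case. The call was also lost with Xist as covariate and in the test against a log2 fold change of 1. It held under 8 of 14 alternatives.

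Gja5 (chromosome 3, 96904693 to 97077416), a connexin of arterial endothelium, was at 4.91, 8.55 and 2.80 CPM in controls and at 33.2, 16.0 and 5.27 CPM in HSC-KO ECs. HSC-KO 3 lay among the controls, so the groups overlapped and the difference was not called (log2 fold change 1.75, SE 0.66, adjusted p = 0.11 by edgeR). Without HSC-KO 3 it was called (2.19, adjusted p = 0.040 by edgeR), and without HSC-KO 1, the highest library, the log2 fold change was 0.97 (adjusted p = 0.29 by edgeR). Its exons overlap those of Gpr89 on the opposite strand over 165 bases, and whether the counting used the strand is not given in the sources used here.

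Gja1 (chromosome 10, 56377330 to 56402513) was at 202, 264 and 294 CPM in controls and at 173, 541 and 395 CPM in HSC-KO ECs. HSC-KO 1 was the lowest of the 6 libraries and the other HSC-KO libraries were the highest. The log2 fold change of 0.55 (SE 0.38, adjusted p = 0.37 by edgeR) was within the spread between libraries.

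Of the elastic fibre genes, Eln and Fbln5 rose. Eln (chromosome 5, 134702593 to 134747323), the gene of tropoelastin, was at 7.78, 4.74 and 2.58 CPM in controls and at 53.9, 30.3 and 75.9 CPM in HSC-KO ECs. The lowest HSC-KO library was well above the highest control. The rise was 10.6-fold (log2 fold change 3.41, SE 0.48, adjusted p = 0.0027 by edgeR). An antisense gene, Gm30003, shares 267 exonic bases with Eln.

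Fbln5 (chromosome 12, 101746565 to 101819055), whose protein tethers elastin to microfibrils and to cell surface integrins, was at 3.87, 3.22 and 1.70 CPM in controls and at 33.8, 31.3 and 19.9 CPM in HSC-KO ECs. All 3 HSC-KO libraries were above all controls. The rise was 9.67-fold (log2 fold change 3.27, SE 0.35, adjusted p = 0.00082 by edgeR).

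Fbln2 and Ltbp4 differed in opposite directions and neither was called. Fbln2 (chromosome 6, 91212455 to 91272540) was at 29.9, 32.2 and 37.1 CPM in controls and at 92.8, 53.5 and 47.1 CPM in HSC-KO ECs. Its groups did not overlap, and HSC-KO 1 was the highest library (log2 fold change 0.96, SE 0.26, adjusted p = 0.037 by edgeR). Fbln2 was called when scaled by library size alone (1.25) and without HSC-KO 3 (1.15, adjusted p = 0.033 by edgeR, 0.0020 to 0.12 over the alternatives). Ltbp4 (chromosome 7, 27305136 to 27337692), which binds latent TGF-beta and the fibulins, was the most abundant of the 10 by CPM, at 1579, 1402 and 1230 in controls and 708, 699 and 908 in HSC-KO ECs. Its groups did not overlap either (log2 fold change -0.86, SE 0.19, adjusted p = 0.016 by edgeR). A second table entry under the symbol Ltbp4 held no more than 0.08 CPM in ECs and was kept apart.

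Of the remaining genes, Sncg gave the largest rise of the 10. Sncg (chromosome 14, 34370274 to 34374789) was at 1.82, 2.75 and 3.45 CPM in controls and at 31.2, 40.4 and 47.6 CPM in HSC-KO ECs. The groups were far apart, with a 14.9-fold rise (log2 fold change 3.90, SE 0.29, adjusted p = 0.00018 by edgeR). Npr3 (chromosome 15, 11839896 to 11907287) was at 1.09, 3.06 and 1.59 CPM in controls and at 5.59, 5.14 and 4.76 CPM in HSC-KO ECs.

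The 3 HSC-KO values of Npr3 lay close together above the controls, a 2.71-fold rise (log2 fold change 1.44, SE 0.39, adjusted p = 0.038 by edgeR, 0.0021 to 0.12 over the alternatives). Leaving out any library except control 2 lost this call (log2 fold change 1.15 to 1.49, adjusted p = 0.076 to 0.12 by edgeR), and Npr3 shares 321 exonic bases with Gm5144 on the opposite strand. Bmx (chromosome X, 164192842 to 164258193) was at 0.87, 1.63 and 1.44 CPM in controls and at 2.07, 1.23 and 0.71 CPM in HSC-KO ECs. These low values overlapped throughout (log2 fold change 0.03, SE 0.48, adjusted p = 0.98 by edgeR).

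Per kilobase of exon, with TMM factors over all 24 libraries, the order of the levels in ECs changed with the genotype. In control ECs Gja4 (mean 271 CPM per kilobase) and Ltbp4 (185) came first with overlapping ranges. Gja1 (21.03), Fbln2 (4.43) and Sncg (2.67) followed, each clear of its neighbours. Gja5 (0.80), Eln (0.53), Fbln5 (0.36), Bmx (0.36) and Npr3 (0.17) closed the order, and each of these overlapped the next. In HSC-KO ECs the order was Ltbp4 (104), Gja4 (66.8), Sncg (40.5), Gja1 (31.3), Fbln2 (8.82), Eln (5.73), Fbln5 (3.57), Gja5 (2.77), Npr3 (0.48) and Bmx (0.38). There the ranges of neighbours overlapped from Ltbp4 through Gja1, from Fbln2 through Gja5 and between Npr3 and Bmx, while Gja1 was clear of Fbln2 and Gja5 of Npr3.

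Markers of other cells in the EC libraries moved in several directions. The summed pan-endothelial list of 12 markers, all detected in every library, was 14990 to 15890 CPM in controls and 11770 to 13110 CPM in HSC-KO ECs. Its members differed in both directions (median log2 fold change 0.25). Ptprb (5043 and 2580 CPM), Eng (3371 and 1359 CPM, the 1 called) and Tek were lower without overlap. Pecam1 (494 and 879 CPM), Tie1, Esam, Robo4 and Ecscr were higher without overlap and were not called. The smooth muscle list of 10 markers summed to 56.9 to 83.7 CPM in controls and 122 to 163 CPM in HSC-KO ECs, with 5 to 8 detected per library. Nearly all of this was Smtn (71.2 ± 14.6 against 144 ± 22.9 CPM, SD, n = 3), while the defining Acta2 and Myh11 averaged 0.39 and 0.27 CPM in controls and 1.07 and 0.62 CPM in HSC-KO ECs. The 10 fibroblast markers summed to 15.2 to 67.0 CPM and 23.8 to 43.0 CPM, overlapping. Of 8 tested, Dpt rose (0.73 to 3.28 CPM), Pi16 was at 4.54 and 9.36 CPM without overlap and was not called, and Col1a1 was at 0.51 and 0.61 CPM. The 10 HSC markers summed to 66.4 to 120 CPM in controls and 30.8 to 40.4 CPM in HSC-KO ECs, and the 5 mesothelial markers to 4.47 to 10.4 CPM and 13.7 to 18.0 CPM. The last difference was that of Gpm6a (6.04 against 14.9 CPM), while Upk3b and Upk1b were below 1 CPM in both groups and 4 of the 5 markers were at 0 in HSC-KO 3. The 8 macrophage markers summed to 36.2 to 43.0 CPM in controls and 2.08 to 3.63 CPM in HSC-KO ECs, with 4 to 6 detected there, and the 8 hepatocyte markers to 64.9 to 116 CPM and 42.3 to 61.4 CPM. The macrophage markers Clec4f, Cd5l and Vsig4 are genes the study reports as reduced within the macrophages. C1qa (7.46 to 0.62 CPM) and Csf1r (6.60 to 0.64 CPM) fell too, while Cd68 (2.13 and 0.98 CPM) was not called. Of 6 lymphatic EC genes, Ccl21a (1.37 to 16.8 CPM), Pdpn (1.64 to 8.58 CPM) and Mmrn1 (0.66 to 3.94 CPM) rose and Flt4, also a gene of sinusoidal ECs, fell (5056 to 1577 CPM), while Prox1 was at 1.79 and 1.61 CPM. Whether any of these cells contributed to the values of the 10 genes was not tested.

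In whole liver, where ECs are a minority, only Fbln5 was called. It was 1 of the 10 genes, beside 2.48% of the 17118 genes tested called in either direction, 1.03% called higher and 1.45% called lower. The groups did not overlap for Gja1, Gja4, Fbln5 and Sncg, 4 of 10, beside 19.7% of all genes, and the median log2 fold change of the 10 was 0.18, beside -0.01 over all genes. In whole tissue, more or fewer cells of a type and more or less RNA per cell cannot be told apart. Without liver HSC-KO 3, Fbln5 was again the 1 gene called (log2 fold change 1.94, adjusted p = 0.0035 by edgeR, at most 0.029 over the alternatives).

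**Figure D2:**
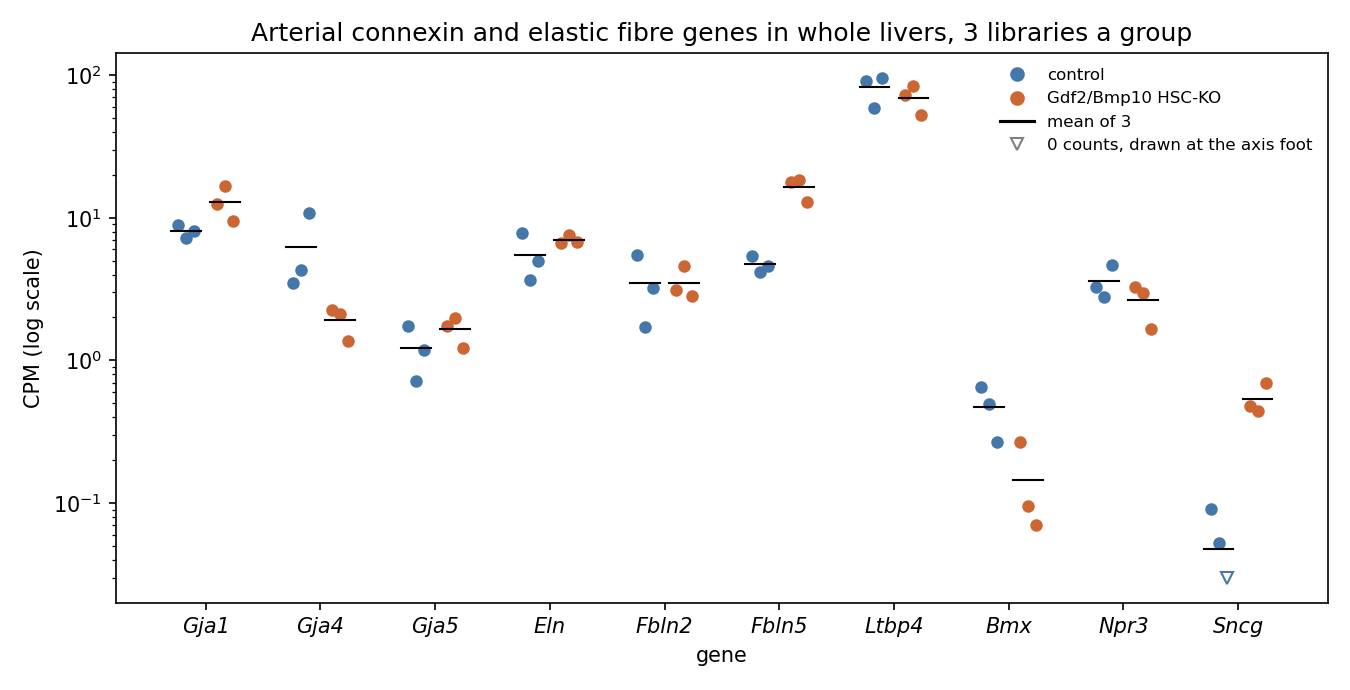
CPM (log scale) of the 10 genes in each of 3 control and 3 HSC-KO livers, with bars at the group means and an open triangle for the library with 0 counts. The Fbln5 and Sncg libraries of HSC-KO livers lie above every control and those of Gja4 below, whereas Eln, Fbln2, Npr3 and Ltbp4 overlap.

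Fbln5 was at 5.40, 4.14 and 4.62 CPM in control livers and at 17.9, 18.3 and 12.9 CPM in HSC-KO livers. All HSC-KO livers were above all controls, a 3.47-fold rise (log2 fold change 1.79, SE 0.19, adjusted p = 0.0040 by edgeR), and the call held under all 14 alternatives tried. Eln, by contrast, was at 7.88, 3.67 and 4.95 CPM in control livers and at 6.66, 7.54 and 6.73 CPM in HSC-KO livers. Control liver 1 was the highest of the 6 libraries, and the log2 fold change was 0.34 (SE 0.28, adjusted p = 0.72 by edgeR).

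Sncg was nearly absent from control livers, with 10, 4 and 0 counts, and had 36, 37 and 50 counts in HSC-KO livers. The groups did not overlap, but with so few counts the log2 fold change of 3.44 had an SE of 0.98 (adjusted p = 0.15 by edgeR). Gja4 was at 3.49, 4.29 and 10.9 CPM in control livers and at 2.25, 2.12 and 1.38 CPM in HSC-KO livers. Here too the groups did not overlap and the call was not made (log2 fold change -1.70, SE 0.46, adjusted p = 0.13 by edgeR). DESeq2's Wald test, run as an alternative, called both Gja4 (adjusted p = 0.0029) and Sncg (adjusted p = 0.011).

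Gja1 was at 8.96, 7.26 and 8.14 CPM in control livers and at 12.5, 16.8 and 9.51 CPM in HSC-KO livers. Its groups did not overlap, by a narrow margin (log2 fold change 0.67, SE 0.22, adjusted p = 0.23 by edgeR). Bmx had 72, 38 and 24 counts in control livers and 20, 8 and 5 counts in HSC-KO livers, a log2 fold change of -1.70 (SE 0.72, adjusted p = 0.38 by edgeR). Scaled to CPM, HSC-KO liver 1 (0.268) slightly exceeded control liver 3 (0.266), so the groups just overlapped. Gja5, Fbln2, Ltbp4 and Npr3 overlapped as well, with log2 fold changes of 0.44, 0.01, -0.23 and -0.45 and adjusted p of 0.75, 1.0, 0.78 and 0.68 by edgeR.

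The fold changes in ECs and in livers were compared directly as an interaction over the 12 libraries, from mice of different ages and with RNA extracted by different methods (RNeasy for ECs, TRIzol for livers). The change of Eln in ECs exceeded that in livers by 3.11 on the log2 scale (SE 0.60, adjusted p = 0.0087 by edgeR) and that of Fbln5 by 1.52 (SE 0.42, adjusted p = 0.049 by edgeR). These 2 calls among 10 genes stand beside 6.48% of 18991 genes called in either direction and 3.85% called higher. The Eln call held under all 16 alternatives, whereas the Fbln5 call held under 4 of 16 (log2 difference 1.23 to 1.76, adjusted p = 0.0097 to 0.11 over the alternatives). Npr3 averaged 3.59 CPM in livers of controls and 2.63 CPM in those of HSC-KO mice, and its difference was 1.92 (SE 0.56, adjusted p = 0.062 by edgeR, 0.0092 to 0.15 over the alternatives), with a call by DESeq2 and without EC control 2. The differences for Gja4 (-0.32, SE 0.77) and Sncg (0.52, SE 0.80) were smaller than their errors, and those for Gja1, Gja5, Fbln2, Ltbp4 and Bmx were not called (adjusted p = 0.28 to 1.0 by edgeR).

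**Figure D3:**
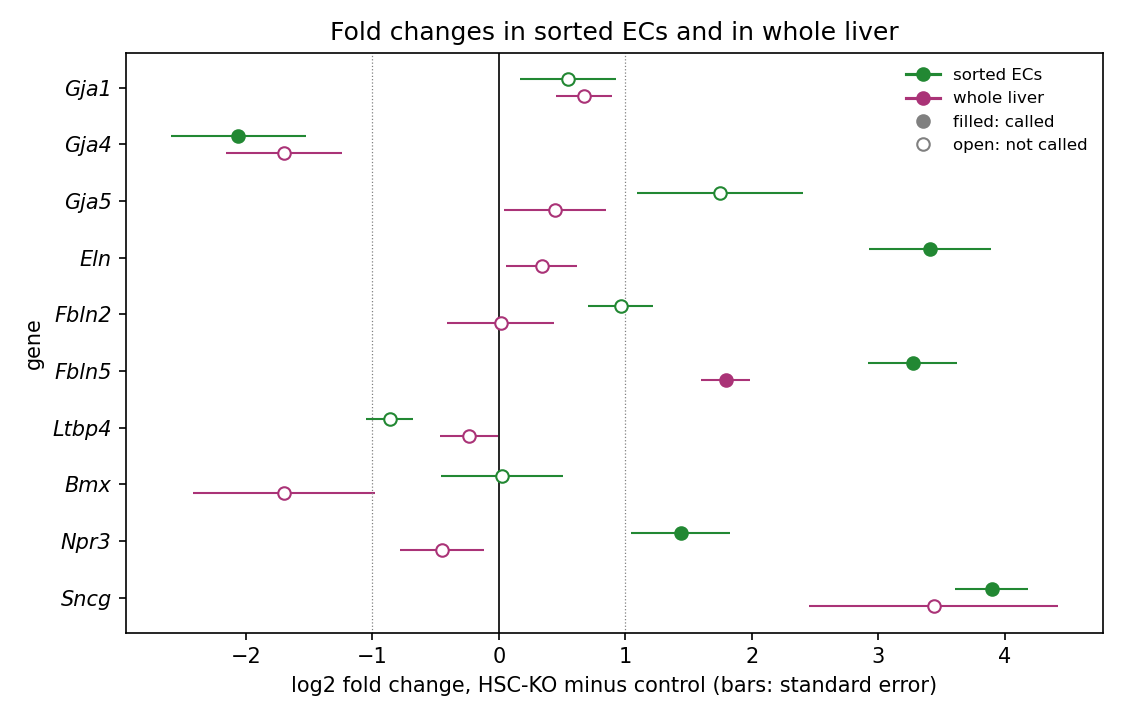
Log2 fold change (HSC-KO minus control, bars for the standard error) of each of the 10 genes in sorted ECs and in whole livers, filled where called and open where not. Gja4 and Sncg lie at similar places in both sources, while Eln is at 3.41 in ECs and 0.34 in livers.

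Divided by the pan-endothelial counts of the same library, the 10 genes differed widely between livers and sorted ECs. In controls, livers held 0.42 times as much Gja4 and 0.69 times as much Sncg as sorted ECs did, and 1.19 times as much Gja1. For Eln the liver held 41.0 times, for Fbln5 59.6 times and for Npr3 67.9 times the EC value. In HSC-KO mice these ratios were 4.14 for Eln, 18.0 for Fbln5 and 16.0 for Npr3. The denominator decided the size of these ratios and the direction for Gja1 in both groups, for Ltbp4 in controls (2.16, and 0.872 per Pecam1) and for Fbln2 in HSC-KO mice (1.70, and 0.704 per Pecam1). Per Pecam1 count alone they were 0.163 for Gja4, 0.28 for Sncg, 0.479 for Gja1, 16.8 for Eln, 24.6 for Fbln5 and 28 for Npr3 in controls, and 1.80 for Eln, 7.5 for Fbln5 and 6.69 for Npr3 in HSC-KO mice. Fibroblast markers in livers summed to 172 to 240 CPM in controls and 386 to 419 CPM in HSC-KO mice, HSC markers to 226 to 304 CPM and 316 to 341 CPM (9 or 10 of 10 markers detected in either list), and smooth muscle markers to 13.5 to 39.3 CPM and 31.3 to 47.1 CPM. Of the 10 HSC markers 0 were called. Reln differed most (72.0 and 138 CPM), and Colec11 and Des were higher without overlap too. Lrat, Ngfr, Pth1r and Rgs5 averaged lower in HSC-KO livers, with overlap. Macrophage markers summed to 352 to 613 CPM in controls and 48.8 to 75.2 CPM in HSC-KO livers. Cholangiocyte markers summed to 55.1 to 84.1 CPM and 26.1 to 36.1 CPM. This difference was mostly that of Spp1 (62.9 to 24.3 CPM), the 1 called of 5 tested. Krt19, Krt7 and Epcam averaged lower and Sox9 higher (3.7 and 4.7 CPM). Hepatocyte markers summed to 110800 to 136500 CPM and 146300 to 188200 CPM, and of 8 tested 0 were called. Alb (87530 and 124800 CPM) and Cps1 were higher without overlap, and Apoc3 (953 and 690 CPM) was lower without overlap. Apoa1, Ahsg and Serpina3k averaged higher, and Ttr and Fabp1 lower, with overlap. The pan-endothelial sum, the denominator above, overlapped between the groups (390 to 452 CPM and 380 to 437 CPM), but its members differed in both directions, with Pecam1 at 33.0 and 66.0 CPM and Tie1 at 25.2 and 42.7 CPM, and Ptprb, which fell, at 113 and 51.2 CPM. The part of these cells in the liver values of the 10 genes was not tested.

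Relatives of the 10 genes in ECs were divided too. Of 17 other connexins 3 were tested and Gjc1, a further gap junction gene, rose. It was at 2.13 ± 0.54 CPM in controls and 28.2 ± 7.20 CPM after the deletion (SD, n = 3, log2 fold change 3.72, SE 0.28, adjusted p = 0.00018 by edgeR). Of 19 other elastic fibre genes 13 were tested, with 3 higher, 3 lower and 7 not called. The higher ones were the latent TGF-beta binding genes Ltbp1 (1.40 to 68.0 CPM) and Ltbp3 (2.71 to 15.6 CPM) and the microfibril gene Mfap2 (0.42 to 6.05 CPM). The lower ones were Emilin1, which encodes an elastic fibre glycoprotein (651 to 192 CPM), and the lysyl oxidase family genes Loxl2 (124 to 41.4 CPM) and Loxl3 (57.8 to 13.1 CPM). The median log2 fold change of the tested elastic fibre relatives was -0.24, and 5 were lower without HSC-KO 1.

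Of 18 other arterial EC genes 17 were tested, and 4 were higher and 0 lower, with a median log2 fold change of 0.43. These were Igfbp3 (1.61 to 432 CPM), Sema3g (0.58 to 31.3 CPM), the netrin receptor gene Unc5b (21.7 to 116 CPM) and Notch4 (57.1 to 115 CPM). The Notch ligand gene Dll4 (197 and 189 CPM), Sox17 (12.6 and 11.04 CPM) and Hey1 (2.16 and 2.91 CPM), chosen after their values were seen, were not called. Other uncalled genes differed without overlap. Tm4sf1 (721 and 1302 CPM, log2 fold change 0.85, adjusted p = 0.0081 by edgeR) and Efnb2 (96.2 and 172 CPM) were higher. Notch1 (275 and 199 CPM) and Nrp1 (2184 and 1686 CPM) were lower. Of 6 venous EC genes 2 fell, Nr2f2 (895 to 330 CPM) and Ackr1 (120 to 9.17 CPM). Of the natriuretic peptide genes 2 of 6 were tested, and Npr1, the signalling receptor for the peptides that Npr3 clears, fell from 545 to 208 CPM (log2 fold change -1.39, SE 0.22, adjusted p = 0.0048 by edgeR). The other, Npr2, was at 56.9 and 111.3 CPM without overlap and was not called (log2 fold change 0.97, adjusted p = 0.013 by edgeR), and the list had 1 higher gene in 4 of 6 fits with a library left out.

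**Figure D4:**
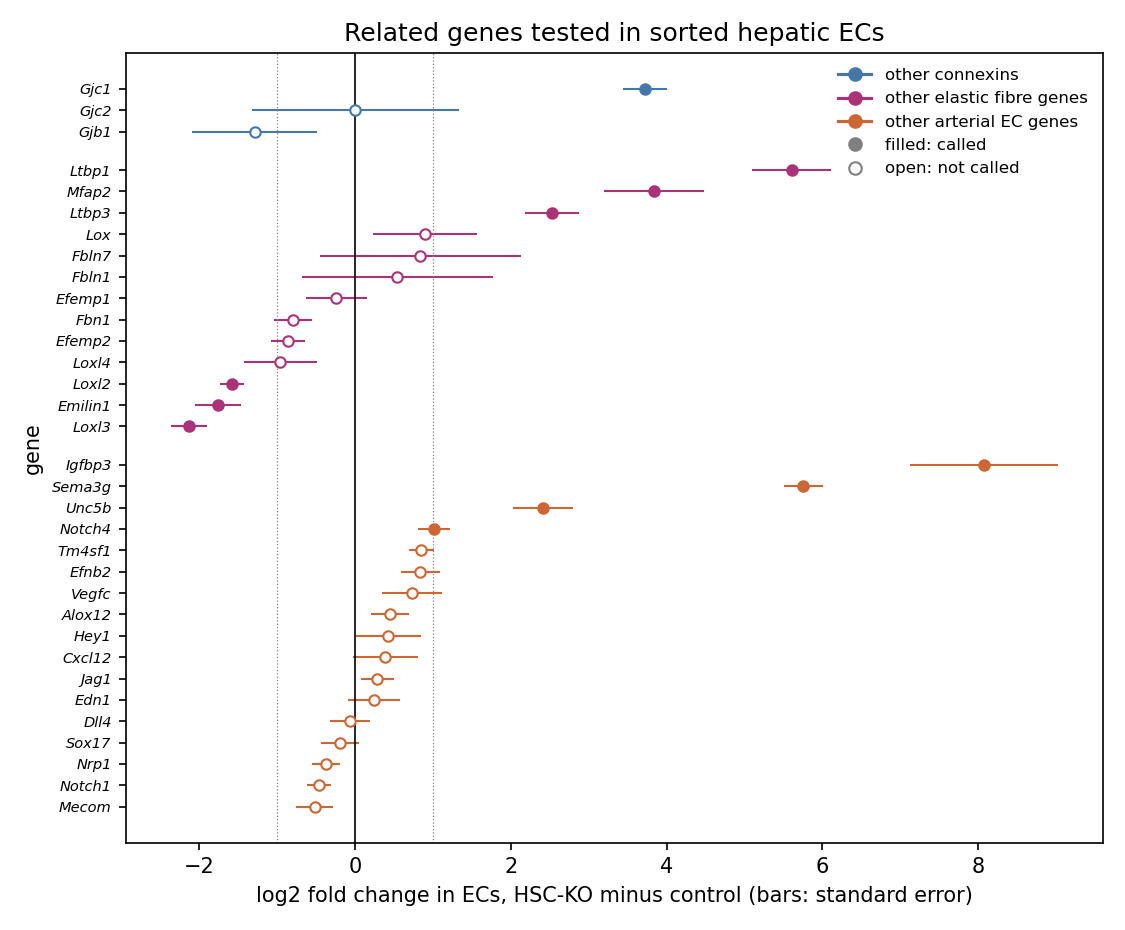
Log2 fold change in ECs (HSC-KO minus control, bars for the standard error) of the other connexins, elastic fibre and arterial EC genes that were tested, filled where called. The connexin Gjc1 is at 3.72, the elastic fibre genes spread from -2.14 to 5.60, and 4 arterial genes are called, all higher.

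In whole livers, where 2.48% of all genes were called against 13.7% in ECs, the same lists gave the following calls. Gjc1 was called at low counts (0.38 to 1.55 CPM). Of 16 elastic fibre relatives tested Ltbp1 rose (3.71 to 10.8 CPM) and Emilin2 fell (3.67 to 0.27 CPM). Of 18 arterial EC genes tested, Sema3g (0.30 to 5.91 CPM), Igfbp3 (18.0 to 77.7 CPM) and Notch4 (7.68 to 20.9 CPM) rose. Npr1 (26.7 to 12.6 CPM) and Npr2 (59.5 to 14.5 CPM) fell, as did the venous gene Vwf (14.6 to 3.95 CPM). Gjc1 lost its call whichever of the 6 livers was left out, and the elastic fibre and venous lists then had 0 lower genes in 5 of 6 cases each. The elastic fibre list had 0 higher genes in 2 of 6 cases, so the call of Ltbp1 was lost there. The arterial list then had 1 to 5 higher genes in place of 3, and the natriuretic list had 1 lower gene in place of 2 in 5 of 6 cases.

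Over the 8 group means of log2 CPM, each centred on its own mean, the genes with the smallest root mean square difference to Gja4 were Cyp4b1 (0.30), Tspan7 (0.52) and Flt4 (0.66) among 11057 genes. For Gja5 they were Serpinh1 (0.29), Ptpn14 (0.35) and Fzd4 (0.45), and for Eln Prss23 (0.91), Nrep (1.04) and Lamc1 (1.05). The 8 groups come from 4 tables, so this likeness is a description.

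In liver macrophages edgeR made no call among the 10 genes. After ligand loss 5 of the 10 passed the filter on low counts and 0 were called by edgeR, with 1, Gja4, at an unadjusted p below 0.05, beside 11.7% of 16337 genes called (6.32% higher, 5.34% lower). The groups did not overlap for 1 of the 5, Fbln5 (0.37 to 0.68 CPM in controls, 0.79 to 1.36 CPM in HSC-KO macrophages, adjusted p = 0.15 by edgeR), beside 40.3% of all genes. Gja4 was at 0.74, 10.0 and 4.07 CPM in control macrophages and at 0, 0.24 and 1.13 CPM in HSC-KO macrophages. Control 2 held most of it, and the summed pan-endothelial markers in the same libraries were 350, 542 and 399 CPM in controls and 75.8, 54.4 and 123 CPM in HSC-KO macrophages. Much of the control sum was Cdh5, which Kupffer cells also express (197 to 282 CPM in controls, 0.77 to 2.68 CPM in HSC-KO macrophages). Without Cdh5, a choice made after seeing the data, the sums were 67.7, 286 and 202 CPM in controls and 74.9, 53.6 and 120 CPM in HSC-KO macrophages, which overlap. Eln had 0 counts in all 3 controls and 19, 0 and 86 counts in HSC-KO macrophages, and Bmx had 0 counts in all 6 libraries. DESeq2's Wald test called Eln alone.

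After Smad4 loss 9 of the 10 passed the filter and 0 were called by edgeR or by DESeq2, with 0 at an unadjusted p below 0.05 by edgeR, beside 5.43% of 17517 genes called (2.76% higher, 2.67% lower). The groups did not overlap for 0 of the 9, beside 29.4% of all genes. Gja4 was at 66.7, 22.2 and 116 CPM in controls and at 149, 106 and 107 CPM after the deletion, and Ltbp4 at 146, 35.1 and 130 CPM and at 110, 117 and 90.4 CPM. Control 2 was the lowest for both genes and also held the fewest pan-endothelial counts (704 CPM, against 1516 to 2118 CPM in the other 5 libraries, and 537 CPM against 1492 to 1916 CPM without Cdh5). The part of endothelial RNA in these values was not tested.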

How the data were processed

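RNA-seq was performed on 24 mouse libraries, 3 in each of 8 groups, and groups were taken from the sample labels. Reads had been mapped by the authors with HISAT2 (mouse build mm10, GRCm38), and the deposited values are raw featureCounts counts per gene. Tool versions, annotation release and strand setting are not given in the sources used here. The study states 3 independent biological replicates. In the labels, 3 mouse codes occur for both ECs and macrophages.

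Genes were filtered with filterByExpr (minimum count 10, minimum total 15), scaled with TMM and tested with edgeR 4.0.16 (glmQLFit and glmQLFTest, R 4.3.3, limma 3.58.1) on the 6 libraries of each comparison, without covariates. The EC and liver fold changes were compared as an interaction over 12 libraries. The standard error is the log2 fold change divided by the root of the F statistic. P-values were adjusted over all genes tested. Of 48820 entries, 483 share 237 symbols and were kept apart. Positions and exon lengths came from GENCODE vM21 (95.6% of symbols matched), and promoters from RefSeq (GRCm38.p6), where 9 of the 10 genes matched, all but Eln.

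All 10 genes were named, with up to 3 called genes per direction from each related list (mean log2 CPM of at least 1, no overlap). Notch4 in ECs and Gjc1 in livers fell outside this rule and were named to complete their counts. The genes and lists were chosen with earlier results of these data known. Levels and ratios per pan-endothelial count are descriptions. Alternatives were DESeq2 1.42.0, its size factors, library size alone, other count filters, the glmTreat test at a log2 fold change of 1, each library left out, Xist as covariate, the replicate number as block and Pecam1 alone as denominator. The test was tested on simulated counts with 200 genes changed 4-fold. It called 83.0% of them for ECs, 87.5% for livers and 62.5% for the difference between both. Unchanged genes called numbered 10, 17 and 8. The changed genes averaged at least 1 CPM, so Sncg and Bmx in livers lie outside this setting. For the difference, ECs and livers were given the same mean level, unlike the real data. The floor of 3 counts covers counting error only. A permutation of 3 against 3 libraries cannot go below p = 0.1, so p-values come only from models over all genes.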

Additional observations from a re-analysis of the deposited data

Results flagged for a closer look

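The fold change of Eln differed between the sources, with that in sorted ECs exceeding that in whole livers by 3.11 on the log2 scale (SE 0.60, adjusted p = 0.0087 by edgeR). It was 3.41 in ECs and 0.34 in livers, where the 3 HSC-KO values (6.66 to 7.54 CPM) lay inside the control range. The fold change of Fbln5 differed as well, by 1.52 (SE 0.42, adjusted p = 0.049 by edgeR), although it rose in both sources, by 3.27 in ECs and 1.79 in livers. This call for Fbln5 held under 4 of 16 alternatives (adjusted p = 0.0097 to 0.11 by edgeR or DESeq2), that for Eln under all 16. The sources differ in age and RNA extraction, and these cannot be told apart from the source.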

How the results depend on the processing

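Of 587 fold changes of the 10 genes under an alternative, 534 kept their direction and their call. Most of the 587 belong to genes that were not called to begin with, for which staying uncalled counts as kept. The calls of Eln, Fbln5 and Sncg in ECs held under all 14 alternatives, and those of Gja4 and Npr3 under 8 of 14 each. The number called in ECs (5) was 3 when tested against a log2 fold change of 1 and 3 to 5 with single libraries left out. With Xist as covariate it was 4, without Gja4 (adjusted p = 0.065 by edgeR). The number in livers (1) was 3 with DESeq2 and 1 with every library left out. In macrophages after ligand loss it was 1 with DESeq2 (Eln) and 0 to 1 with single libraries left out, the call being Eln without HSC-KO 2, and after Smad4 loss it was 0 throughout. The number for the difference between sources (2) was 3 with DESeq2 (Npr3 added), 1 with DESeq2 size factors, 1 with all genes with a count and 1 to 2 with single libraries left out. With library size alone 6 were called in ECs, with Fbln2 added (1.25).

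Directions turned for genes that were not called. Fbln2 in livers was -0.10 with library size alone and -0.30 to 0.52 with single libraries left out, and Bmx in ECs -0.069 with the replicate block and -0.44 to 0.33. In macrophages after ligand loss the ranges were -1.56 to 0.44 for Gja1 and -0.63 to 7.61 for Fbln2. After Smad4 loss they were -0.27 to 0.72 for Eln, -0.055 to 0.62 for Fbln2, -0.15 to 0.83 for Fbln5, -0.40 to 0.34 for Ltbp4 and -0.76 to 0.60 for Sncg. For the difference between sources they were -0.47 to 0.24 for Gja1, -1.14 to 0.076 for Gja4 and -0.47 to 1.08 for Sncg. Per Pecam1 count alone, which itself was higher in HSC-KO livers (33.0 to 66.0 CPM), the liver log2 ratio was -0.35 for Gja1 in place of 0.73 per pan-endothelial count, -0.57 for Gja5 in place of 0.49, -0.66 for Eln in place of 0.39 and -1.01 for Fbln2 in place of 0.05. The counts of the related lists stayed within 1.5 times in 106 of 140 cases, the exceptions mostly in livers. The cause was not tested.

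Whether replicate numbers pair the libraries was not settled. Correlations of same-numbered EC deviations were 0.21, 0.18 and 0.00, and those of unlike-numbered EC libraries ran from -0.26 to 0.08. With the replicate block the number called was 5 in ECs, 1 in livers and 2 for the difference, as without it. Low counts of Sncg and Bmx in livers limit their precision.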
